A study of Mus musculus with 12 samples.

Results

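The genes examined here are 10 genes of the white adipocyte, the fat-storing cell that lies under and within the skin, measured in mouse scars with and without stretching. They were taken by symbol from a list (Adipoq, Lep, Retn, Cfd, Plin1, Plin4, Cidec, Fabp4, Lpl and Pparg), with no threshold on their values. All 10 were among the 35976 gene rows of the count tables, and all 10 were among the 18853 genes with enough counts to be tested. The 12 libraries are bulk RNA-seq of dorsal scars of male mice aged 8 to 12 weeks, with 3 mice in each of 4 groups. The Tem1 WT/WT mice carried the intact gene. The Tem1 lacZ/lacZ mice were C57BL/6J-backcrossed animals in which the sole exon of Tem1 (gene symbol Cd248) was replaced by lacZ, so that the gene is lost in every cell type and not in fibroblasts alone. All animals received a split wound on the back of 1.5 cm and the same plastic device from day 6. The device stretched the skin of the traction groups by 1 mm a day until 8 mm was reached, and put no force on the wounds of the sham groups. The study asked whether loss of Tem1 changes the scar that traction produces.

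White adipocytes store triglyceride in a large lipid droplet and release hormones called adipokines. The nuclear receptor PPARγ, encoded by Pparg, switches on most of the genes examined here when a precursor becomes an adipocyte. Their products then take up fatty acids from the blood, carry them through the cell, coat and enlarge the droplet, and signal to other organs. In skin these cells form the layer beneath the dermis and surround the hair follicles, and that layer is lost and rebuilt around wounds. RNA from a whole scar comes from all its cells together, so fewer adipocytes and less RNA per adipocyte cannot be told apart in these data.

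The libraries held 41536788 to 64644293 counts. Cd248 was at 92.4 to 337 CPM (counts scaled to the library's total, with the TMM correction for library composition) in the 6 Tem1 WT/WT libraries, and at no more than 0.248 in the 6 Tem1 lacZ/lacZ libraries, so the genotype labels and the transcript went together in every library. Levels below are TMM-scaled CPM of each library, with replicates 1, 2 and 3 in that order, and means are given with their SD (n = 3). A gene is called changed when its adjusted p, taken over all 18853 genes, is under 0.05.

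The 10 genes lie at separate loci on 7 chromosomes, and the starts of 8 of them were matched in the RefSeq promoter table of GRCm38.p6, from 250 bases before to 50 after each start. Because the genes moved together over the libraries (below, with values), 4 of these promoters are shown: Adipoq as the reference gene, Lep as the gene with a C/EBP match, Cfd as the gene with the widest range, and the most downstream of 3 listed starts of Pparg as the gene with the narrowest range. Capitals mark matches, on either strand, to the letters TTGCGCAA (a C/EBP site) or CCAAT. Each sequence is printed 5′ to 3′ on the strand of its gene, which is the plus strand for all 4.
Adipoq, chr16:23146286-23146585: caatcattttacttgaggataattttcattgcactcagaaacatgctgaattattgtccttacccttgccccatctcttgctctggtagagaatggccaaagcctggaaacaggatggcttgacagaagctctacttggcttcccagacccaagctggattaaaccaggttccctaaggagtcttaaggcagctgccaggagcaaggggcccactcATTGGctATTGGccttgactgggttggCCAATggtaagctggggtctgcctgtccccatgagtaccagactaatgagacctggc
Lep, chr6:29059971-29060270: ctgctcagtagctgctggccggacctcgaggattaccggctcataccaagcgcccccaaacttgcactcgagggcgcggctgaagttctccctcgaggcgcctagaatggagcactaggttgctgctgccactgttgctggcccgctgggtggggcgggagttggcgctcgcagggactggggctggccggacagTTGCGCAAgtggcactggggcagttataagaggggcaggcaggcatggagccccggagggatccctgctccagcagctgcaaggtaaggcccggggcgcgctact
Cfd, chr10:79890603-79890902: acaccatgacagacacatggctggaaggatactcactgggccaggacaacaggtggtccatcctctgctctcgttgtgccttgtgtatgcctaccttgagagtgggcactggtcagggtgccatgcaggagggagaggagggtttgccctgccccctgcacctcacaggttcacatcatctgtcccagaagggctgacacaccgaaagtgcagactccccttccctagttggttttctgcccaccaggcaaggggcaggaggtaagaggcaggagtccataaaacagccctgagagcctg
Pparg, chr6:115421816-115422115: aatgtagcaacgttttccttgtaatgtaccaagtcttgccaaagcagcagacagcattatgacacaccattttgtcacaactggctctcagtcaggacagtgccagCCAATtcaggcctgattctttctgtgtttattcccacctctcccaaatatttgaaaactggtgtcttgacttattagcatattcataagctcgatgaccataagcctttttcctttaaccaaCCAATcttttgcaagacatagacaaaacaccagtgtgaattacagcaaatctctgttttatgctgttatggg
Among the 11 listed promoters of the 8 matched genes, only that of Lep held TTGCGCAA, which was present in 60 of all 32851 mouse promoters of the table (0.183%). CCAAT was found in 4 of the 11, those of Adipoq, Plin4 and 2 starts of Pparg, against 37.4% of all promoters. TATAAA was found at 1 start of Pparg (13.6% of all), and AGGTCA, the core letters bound by nuclear receptors, at 2 starts of Pparg (16.3% of all). The pair AGGTCANAGGTCA, which contains those letters and is bound by PPARγ with its partner RXR, was in none of the 11 and in 0.0396% of all promoters. None of the motifs searched was present in all 8 matched genes. The windows hold the start regions only, and enhancers farther away were not searched.

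The adipokines and other secreted products were Adipoq, Lep, Retn and Cfd. Adipoq encodes adiponectin, a hormone made by mature adipocytes (chr16:23146536-23158028, plus strand, GRCm38). It was at 93.3, 81.2 and 96.8 CPM in the Tem1 WT/WT sham libraries, 90.5 ± 8.18 on average, and at 75.9, 2.41 and 13.1 CPM (30.5 ± 39.7) after traction. In Tem1 lacZ/lacZ mice it was at 499.7, 11.5 and 117 CPM (209 ± 257) in sham scars and at 12.1, 7.11 and 262 CPM (93.8 ± 146) after traction. The Tem1 WT/WT sham libraries were close to each other, whereas in each of the other groups the highest library exceeded the lowest by 31.5-fold or more. All 3 Tem1 WT/WT traction libraries lay below the 3 shams, replicate 1 only slightly, and every other pair of groups overlapped.

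Cfd encodes adipsin, a serine protease of the complement system that adipocytes secrete (chr10:79890853-79892655, plus strand). Its CPM were 744, 359.5 and 589 in Tem1 WT/WT sham scars and 524, 6.38 and 86.7 after traction. Among Tem1 lacZ/lacZ libraries they were 2877, 77.6 and 585 in sham scars and 42.8, 51.9 and 1214 after traction. Cfd had the widest range of the 10 genes, 451-fold from 289 counts in Tem1 WT/WT traction replicate 2 to 120893 counts in Tem1 lacZ/lacZ sham replicate 1, and also the highest mean level per length of transcript, 647 CPM per kb.

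Lep, which encodes the satiety hormone leptin (chr6:29060220-29073877, plus strand), was the lowest member, at 2.37 CPM per kb on average. It was at 6.10, 10.5 and 5.65 CPM in Tem1 WT/WT sham and 7.40, 0.177 and 2.77 CPM in Tem1 WT/WT traction libraries. The Tem1 lacZ/lacZ libraries had 28.1, 1.95 and 12.8 CPM in sham and 1.38, 1.16 and 14.6 CPM in traction. The lowest of these values rested on 8 counts. Retn encodes resistin, a small secreted protein of mouse adipocytes (chr8:3655770-3660110, plus strand). Its sham values in Tem1 WT/WT mice were 14.5, 14.4 and 15.2 CPM, the tightest group of any member with a 1.06-fold range. The Tem1 WT/WT traction values of Retn were 19.2, 0.419 and 4.19 CPM, a 45.8-fold range that extended both above and below the shams. Retn in Tem1 lacZ/lacZ mice was at 119.9, 3.04 and 22.3 CPM in sham and 2.19, 2.50 and 48.9 CPM in traction libraries.

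**Figure D1:**
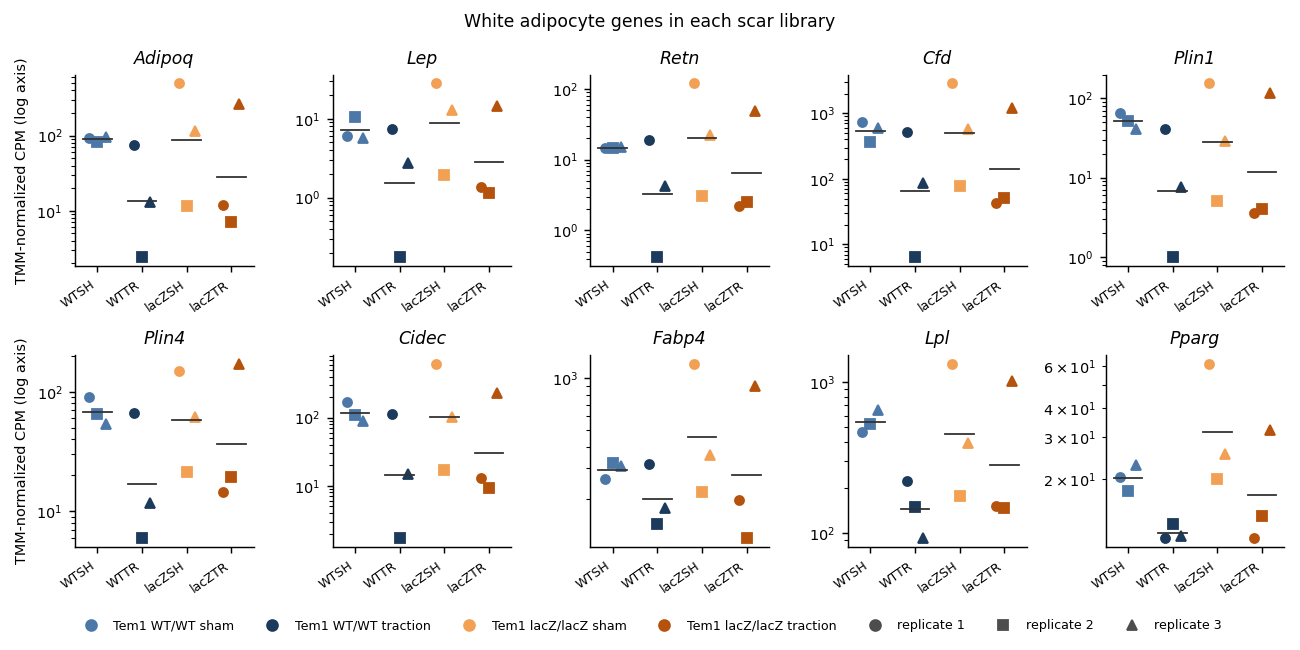
TMM-scaled CPM (log axis) of the 10 white adipocyte genes in each of the 12 scar libraries, by group (WTSH and WTTR, Tem1 WT/WT sham and traction; lacZSH and lacZTR, Tem1 lacZ/lacZ sham and traction). Symbols mark replicate numbers and bars the geometric mean of 3 libraries. Tem1 lacZ/lacZ sham replicate 1 is the highest library of its group in all 10 panels and Tem1 lacZ/lacZ traction replicate 3 the highest of its own, while the Tem1 WT/WT sham libraries sit close together.

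Plin1, Plin4 and Cidec act at the lipid droplet. Perilipin 1, encoded by Plin1 (chr7:79720218-79732903, minus strand), coats the droplet and controls access of lipases to it. Plin1 was at 64.9, 51.9 and 40.6 CPM in Tem1 WT/WT sham libraries and 41.3, 0.994 and 7.72 CPM after traction. The Tem1 lacZ/lacZ values were 155, 5.15 and 28.9 CPM in sham and 3.55, 4.004 and 118 CPM in traction libraries. The order of the libraries was that of Adipoq at both ends, with traction replicate 2 of the Tem1 WT/WT mice lowest and sham replicate 1 of the Tem1 lacZ/lacZ mice highest.

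Cidec encodes a protein that fuses small droplets into large ones (chr6:113424634-113435760, minus strand), and its range of 355-fold was second to that of Cfd. Its levels in Tem1 WT/WT libraries were 169, 109 and 88.3 CPM in sham and 114, 1.72 and 15.04 CPM in traction. Without Tem1 they were 612, 17.2 and 102 CPM in sham and 12.8, 9.32 and 231 CPM in traction. Plin4, a perilipin of small and newly formed droplets (chr17:56100591-56109803, minus strand), ranged less, 28.7-fold in all. It was at 90.2, 65.5 and 53.7 CPM in Tem1 WT/WT sham and 67.1, 5.96 and 11.7 CPM in Tem1 WT/WT traction libraries. The Tem1 lacZ/lacZ mice had 149, 21.1 and 61.1 CPM in sham and 14.5, 19.3 and 171 CPM in traction libraries. Plin4 was the sole member whose highest library was not Tem1 lacZ/lacZ sham replicate 1 but Tem1 lacZ/lacZ traction replicate 3.

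Fabp4 and Lpl serve fatty acid supply. Lpl encodes lipoprotein lipase, which frees fatty acids from circulating triglyceride (chr8:68880491-68907448, plus strand). It was at 464, 528 and 655 CPM (549 ± 97.2) in Tem1 WT/WT sham scars and at 222, 149 and 92.99 CPM (155 ± 64.9) after traction, with a clear gap between the groups. In Tem1 lacZ/lacZ mice the values were 1314, 175 and 397 CPM in sham and 152, 147 and 1019.9 CPM in traction scars, and the groups overlapped. Fabp4 encodes a cytosolic carrier of fatty acids (chr3:10204088-10208576, minus strand). In Tem1 WT/WT libraries it was at 259.8, 321 and 307 CPM in sham and 319.6, 142 and 176 CPM in traction. Fabp4 in Tem1 lacZ/lacZ libraries was at 1204, 217 and 360.1 CPM in sham and 197, 118 and 902 CPM in traction. Neither gene came near 0 in any library, with minima of 118 CPM for Fabp4 and 92.99 CPM for Lpl. Both genes are also known from cells other than adipocytes, Fabp4 from endothelium and macrophages and Lpl from macrophages and muscle.

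Pparg, the transcription factor among the 10 (chr6:115360951-115490399, plus strand), varied least, 5.44-fold. It was at 20.4, 17.7 and 22.9 CPM (20.3 ± 2.58) in Tem1 WT/WT sham and at 11.3, 12.9 and 11.5 CPM (11.9 ± 0.860) in Tem1 WT/WT traction libraries, which did not overlap. In Tem1 lacZ/lacZ mice it was at 61.2, 20.05 and 25.4 CPM in sham and 11.3, 13.9 and 32.4 CPM in traction libraries, which overlapped. Its replicates were the closest of all 10 members in the Tem1 WT/WT traction group, where the other 9 ranged 2.25-fold or more and Pparg 1.14-fold. By mean level per length of the longest coding transcript, the order of the 10 genes was Cfd (647 CPM per kb), Fabp4 (421), Lpl (108), Adipoq (82.1), Cidec (71.8), Retn (19.5), Plin1 (15.5), Plin4 (10.6), Pparg (10.2) and Lep (2.37). Given the spread over libraries, neighbours in this order such as Plin4 and Pparg could not be told apart.

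The 10 genes varied together from library to library. Over the 12 libraries the log2 CPM of Adipoq had a Pearson r of 0.987 with Cidec, 0.986 with Retn, 0.984 with Cfd, 0.980 with Plin1, 0.965 with Lep and 0.964 with Plin4. It was lower with Fabp4 (0.902), Lpl (0.895) and Pparg (0.764). Spearman's rho ran from 0.776 for Pparg to 0.944 for Cfd. Without the 2 libraries farthest from the median of Adipoq, replicate 2 of each traction group, r ran from 0.787 for Pparg to 0.983 for Retn. With the group means taken out of each gene, so that only differences between replicates were left, r still ran from 0.730 for Pparg to 0.988 for Retn. These values describe the genes of the same 12 RNA pools, which share their tissue, depth and scaling, and are not tests.

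Pparg, Fabp4 and Lpl followed Adipoq with a much smaller step. A change of 1 in log2 CPM of Adipoq went with a change of 1.06 in Cfd, 1.02 in Cidec, 0.97 in Plin1, 0.94 in Retn and 0.81 in Lep. The slope was 0.63 for Plin4, 0.48 for Lpl, 0.39 for Fabp4 and 0.24 for Pparg. As a ratio of CPM, Retn to Adipoq stayed between 0.155 and 0.351 in all 12 libraries, a 2.27-fold range, although Retn itself ranged 286-fold and Adipoq 208-fold. Pparg to Adipoq ranged from 0.123 in Tem1 lacZ/lacZ sham replicate 1 to 5.34 in Tem1 WT/WT traction replicate 2. In the latter library, where Adipoq was at 2.41 CPM, Pparg was still at 12.9 CPM, Fabp4 at 142 and Lpl at 149.

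**Figure D2:**
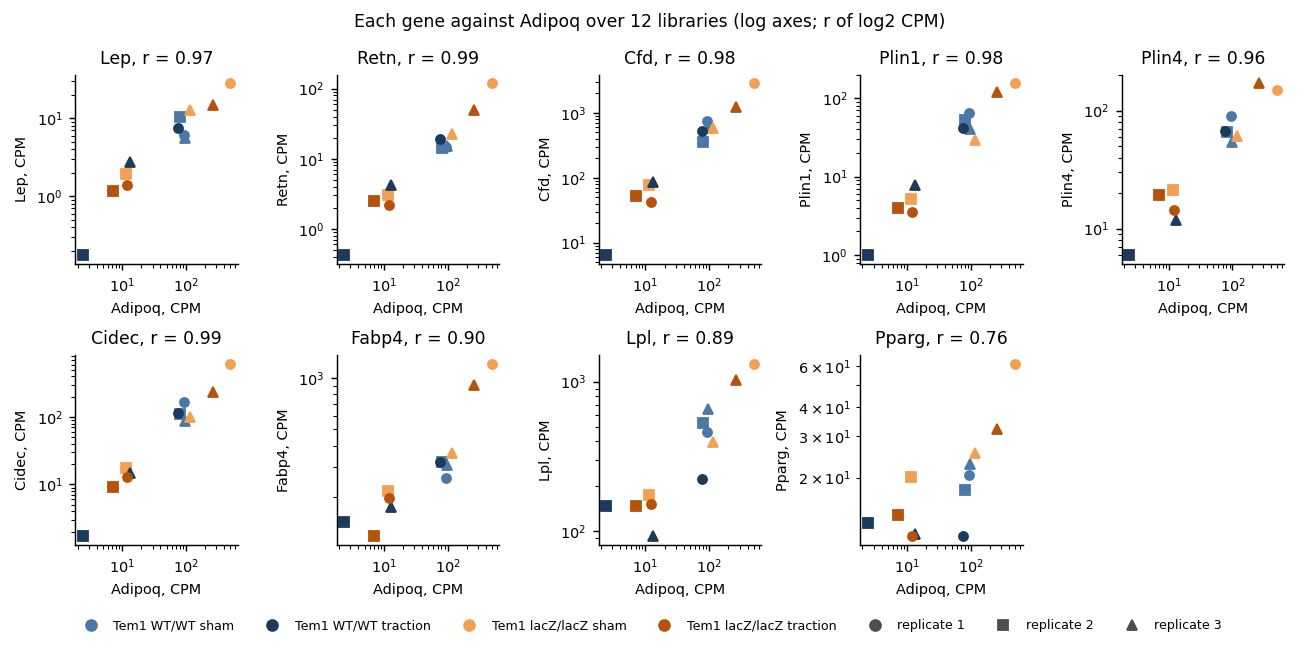
Each of the other 9 genes (vertical axes, CPM) against Adipoq (horizontal axes, CPM), both on log axes, for 12 libraries coloured by group, with replicate numbers as symbols and r of the log2 CPM above each panel. Retn, Cidec, Cfd and Plin1 lie along a steep line through all groups, whereas Pparg, with r of 0.764, flattens at low Adipoq.

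Most of the variation of these genes lay between replicates of the same group, except for Pparg (47.9% of its sum of squares). Within groups, Tem1 lacZ/lacZ sham replicate 1 was the highest library for 10 of 10 genes and replicate 2 the lowest for 10 of 10. Tem1 lacZ/lacZ traction replicate 3 was the highest of its group for 10 of 10. In the Tem1 WT/WT traction group replicate 1 was the highest for 9 genes and replicate 2 the lowest for 8. The median SD of log2 CPM within groups was 2.11 for the 10 genes against 0.36 for all genes tested, and 8 of the 10 lay above the 95th percentile of all genes (1.13), the exceptions being Fabp4 and Pparg. For the median member 71.9% of the sum of squares was within groups, against 53.6% for the median of all genes. With 8 residual degrees of freedom over 12 libraries, a large share lies within groups even where groups do not differ.

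On the scale of TMM-scaled CPM, the 10 genes together took 0.0322% of Tem1 WT/WT traction replicate 2, the lowest share, and 0.702% of Tem1 lacZ/lacZ sham replicate 1, the highest. The 3 Tem1 WT/WT sham libraries lay between 0.156% and 0.193%. The libraries with the lowest and the highest share held 46410588 and 41714795 raw counts, before the TMM correction.

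In Tem1 WT/WT mice, traction was compared with sham. All 10 members had a negative log2 fold change, with a median of -1.38 against -0.01 for all genes, but 0 of the 10 passed the test, in which 9.15% of all genes were called. None of the 10 had an unadjusted p under 0.05, against 5914 of all 18853 genes. DESeq2's Wald test, which called 21.5% of all genes, also called 0 of them. Lpl had the largest difference, -1.83 (95% confidence interval -3.67 to 0.01, adjusted p = 0.162). The difference was -1.66 for Plin1 (-5.03 to 1.72), -1.57 for Adipoq (-4.92 to 1.78), -1.48 for Cidec (-4.90 to 1.94) and -1.45 for Cfd (-4.95 to 2.05). It was -1.30 for Plin4, -1.11 for Lep, -0.89 for Retn and -0.48 for Fabp4, with adjusted p between 0.435 and 0.715. Pparg had the narrowest interval, -1.75 to 0.20 around -0.78 (adjusted p = 0.252).

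For Adipoq, Lpl and Pparg the 3 Tem1 WT/WT traction libraries all lay below the 3 shams, as did those of 18% of all genes tested. For the other 7 members the groups overlapped through traction replicate 1, which was within or above the range of the shams. Without that library the median log2 fold change of the members was -2.85, and without traction replicate 2 it was -0.84, with 0 members called either way. The intervals were wide, reaching a median of 2.96 to either side of the estimate on the log2 scale, and all 10 included 0.

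Traction against sham in Tem1 lacZ/lacZ mice gave the same result by count, with 0 of 10 members and 0% of all genes called. None of the members had an unadjusted p under 0.05, against 1530 of all 18853 genes. DESeq2's Wald test called 0.122% of all genes and 0 members here. All 10 fitted values were negative, with a median of -1.02. The difference was -1.16 (-4.47 to 2.15) for Adipoq and -0.89 (-1.86 to 0.08, adjusted p = 0.623) for Pparg, and the groups overlapped for all 10 genes, while they did not for 12.9% of all genes. Without sham replicate 1 the sign turned for 8 of the 10, all but Lep and Pparg: the median of the members was 0.55 and Adipoq was at 0.60. Without traction replicate 3 the median was -3.77.

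The change with traction, averaged over both genotypes, was negative for all 10 genes with a median of -1.17, and 0 of 10 were called against 9.73% of all genes. Pparg was the sole member with an unadjusted p under 0.05 (adjusted p = 0.103 by edgeR's quasi-likelihood test), at -0.83 (-1.52 to -0.15). Of all 18853 genes, 5779 had an unadjusted p under 0.05 in this comparison. Lpl stood at -1.17 (-2.45 to 0.11, adjusted p = 0.196), Cidec at -1.50 (-3.92 to 0.91), Cfd at -1.44 and Adipoq at -1.36. The interaction of genotype and traction, which asks whether the change with traction differed between genotypes, was called for 0 of the 10 genes and 0% of all genes. Its fitted values were positive for 5 members and negative for 5, from -0.55 to 1.31. Lpl was the member at the upper end (-1.22 to 3.85, adjusted p = 0.726), and Adipoq was at 0.41 (-4.21 to 5.04). DESeq2's Wald test called 0 members in both, against 20.4% of all genes for the mean change and 0.366% for the interaction. By the quasi-likelihood test no member had an unadjusted p under 0.05 for the interaction, against 1680 of all 18853 genes.

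Between genotypes the members were higher in the fitted means of Tem1 lacZ/lacZ mice, and again none passed the test. In sham scars 0 of 10 were called against 0.0106% of all genes, with a median log2 fold change of 0.97, 1.21 (-2.10 to 4.52) for Adipoq and 0.81 (-0.17 to 1.78) for Pparg. Without Tem1 lacZ/lacZ sham replicate 1 the median was -0.65 and Adipoq was at -0.52, below the wild type. In traction scars 0 of 10 were called against 0.106% of all genes, with a median of 1.13, 1.62 (-1.73 to 4.98) for Adipoq and 1.51 (-0.32 to 3.33, adjusted p = 0.268) for Lpl. Without Tem1 lacZ/lacZ traction replicate 3 the median was -1.56, Adipoq was at -1.67 and Lpl at -0.047. In both genotype comparisons the groups overlapped for all 10 genes, against a background of 26.8% of all genes without overlap in sham and 26.6% in traction scars. None of the 10 had an unadjusted p under 0.05, against 2198 of all 18853 genes in sham and 4930 in traction scars. DESeq2's Wald test called 0 of them, against 0.143% of all genes in sham and 12.2% in traction scars.

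**Figure D3:**
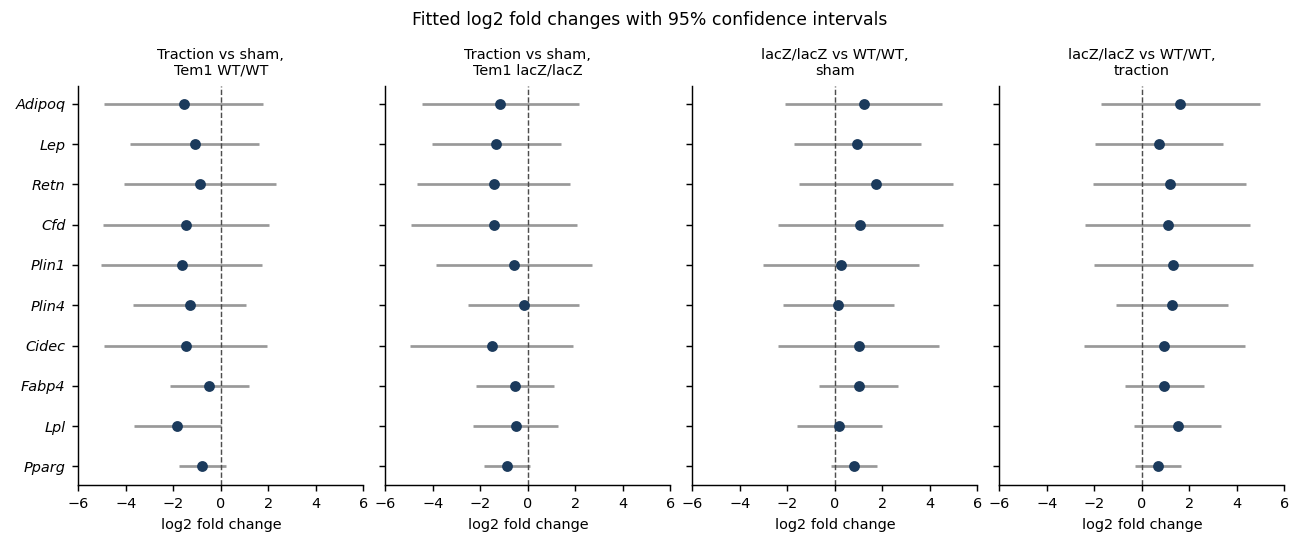
Fitted log2 fold changes (points) and 95% confidence intervals (bars) of the 10 genes in the 4 pairwise comparisons, from the model over all 12 libraries. Every point lies on the negative side in both traction comparisons and on the positive side in both genotype comparisons, and every interval crosses 0. The comparisons share groups, so the panels are not independent of each other.

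Other genes were ranked by how closely they followed Adipoq. By Pearson r of log2 CPM over the 12 libraries, among genes whose log2 CPM averaged 1 or more, the 10 nearest outside the list were Pck1 (r = 0.990), Cdo1, Cyp2e1, Ces1f, Mrap, Slc36a2, Slc7a10, Thrsp, Acvr1c and Klhdc7a (r = 0.970). Pck1 encodes the cytosolic enzyme that supplies glycerol for triglyceride in fat. It was at 47.2, 43.4 and 33.02 CPM in Tem1 WT/WT sham and 40.5, 0.398 and 3.94 CPM in Tem1 WT/WT traction libraries. Pck1 in Tem1 lacZ/lacZ mice was at 174, 3.96 and 33.5 CPM in sham and 2.91, 2.23 and 126 CPM in traction libraries. All 10 had their highest value in Tem1 lacZ/lacZ sham replicate 1 and their lowest in Tem1 WT/WT traction replicate 2, as Adipoq did.

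Among relatives of the members, Retnla, Cidea, Plin2, Plin3, Fabp5, Ppara and Ppard were compared by level. Ppara, which encodes a relative of PPARγ that drives fatty acid oxidation, was at 2.86 to 11.7 CPM. Plin3, a perilipin of many tissues, was at 81.6 to 110.1 CPM in all 12 libraries, and Plin2, which coats droplets in many cell types, at 155 to 349.8 CPM, neither with the wide range of Plin1 and Plin4. Fabp5, the carrier typical of keratinocytes, ranged from 529 to 5173 CPM and had an r of -0.178 with Adipoq. Cidea, which is related to Cidec and is made in brown fat and in sebaceous glands, had an r of 0.134 with Adipoq. Retnla, a relative of Retn made by adipocytes and macrophages among others, ranged from 0.177 to 93.5 CPM (r = 0.833). Ppard, which encodes the widely expressed relative of PPARγ, was at 31.8, 38.9 and 36.9 CPM in Tem1 WT/WT sham and 145, 51.1 and 63.1 CPM in Tem1 WT/WT traction libraries. It rose by 1.27 in that comparison (adjusted p = 0.0412, edgeR's quasi-likelihood test). This was the 1 call among 18 relatives tested, against 9.15% of all genes called.

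**Figure D4:**
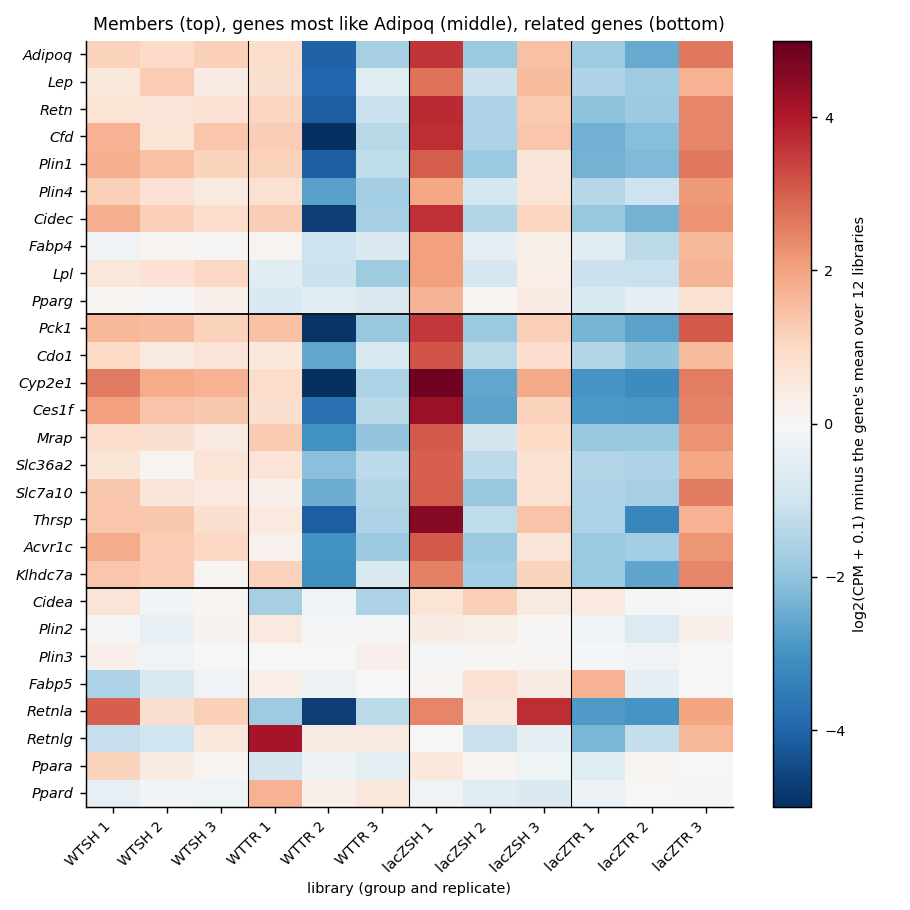
log2(CPM + 0.1) of each gene minus its mean over 12 libraries (colour), for the 10 white adipocyte genes, the 10 genes most like Adipoq and 8 relatives of the members. Columns are the libraries by group and replicate. The upper 20 genes are all high in Tem1 lacZ/lacZ sham replicate 1 and low in Tem1 WT/WT traction replicate 2, with Fabp4, Lpl and Pparg paler than the rest, and most relatives lack this pattern.

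The wider adipocyte pathway was counted in Tem1 WT/WT traction against sham, where 9.15% of all genes were called in either direction. Among 10 adipogenic transcription factors other than Pparg, 2 rose and 0 fell: Cebpb (2.09, adjusted p = 0.0384) and Cebpd (1.30, adjusted p = 0.0329), which encode early C/EBP factors that are also induced by inflammation. Mlxipl (-2.58) and Klf15 (-1.24) were not called (adjusted p = 0.0811 and 0.138, edgeR's quasi-likelihood test). Without overlap of the groups, 2 of the 10 factors were higher after traction and 2, Mlxipl and Klf15, lower. The latter compares with 18% of all genes. The share of all genes wholly higher was not taken, so the former count has no background beside it. Cebpb was at 1107, 268 and 196 CPM after traction and 114, 121 and 135 CPM in sham scars. Of 16 genes of fatty acid and triglyceride synthesis, 1 fell and 0 rose: Pnpla3, at -1.33 (adjusted p = 0.0337). Of 8 lipolysis genes and 9 genes of fatty acid and glucose uptake, 0 were called. Of 10 other adipocyte markers 0 were called, although 6 had all traction libraries below all shams, against 18% of all genes. The median of these markers was -1.05. Of 8 progenitor markers, 1 rose and 0 fell: Pdgfra, at 1.45 (adjusted p = 0.0329), which is also a fibroblast marker. Of 6 adipokine receptors 0 were called. Of 9 brown and beige markers 1 fell: Ppargc1a, at -2.10 (adjusted p = 0.0329, edgeR's quasi-likelihood test). It encodes a transcriptional coactivator that muscle also makes. Ucp1, the defining gene of brown fat, had 0 to 28 counts per library and was not tested. With Tem1 WT/WT sham replicate 1 left out, adjusted p of Ppard, Cebpb, Cebpd, Pnpla3, Pdgfra and Ppargc1a lay between 0.124 and 0.145, and without sham replicate 1 or 2 no gene of the whole table was called in this comparison. Over the 12 fits that each left out 1 library, Ppard was called in 2, Cebpb in 4, Pnpla3 in 6 and each of the other 3 in 7. In the other pairwise comparisons and in the interaction, 0 genes of any of these lists were called.

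Averaged over both genotypes, 9.73% of all genes were called. Of the lists above, 1 of 10 transcription factors, 1 of 9 uptake genes, 1 of 8 progenitor markers and 1 of 18 relatives rose with traction, and 1 of 16 synthesis genes and 2 of 8 progenitor markers fell. Angptl4, which encodes an inhibitor of lipoprotein lipase, rose by 0.97 (adjusted p = 0.0417). It was at 104, 113 and 113 CPM in Tem1 WT/WT sham and 362, 253 and 182 CPM in Tem1 WT/WT traction libraries, without overlap, and at 146, 59.5 and 88.6 CPM and 97.2, 209.7 and 164 CPM in those of Tem1 lacZ/lacZ mice, with overlap. Cebpd, Pdgfra and Ppard also rose in this comparison, by 0.78, 1.12 and 0.81. Pnpla3 fell by 1.12, and the progenitor markers Dpp4 and Pi16 fell by 1.24 and 1.03. These calls also rested on single libraries, since without Tem1 lacZ/lacZ sham replicate 2 no gene of the table was called in this comparison.

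Markers of other cell types were set beside the 10 genes. The summed level of the 10 other adipocyte markers followed that of Adipoq (r = 0.967, log2 scale, 12 libraries). Gene by gene, r ran from 0.606 to 0.983 and was over 0.9 for 4 of the 10. Cyp2e1, Slc7a10 and Acvr1c of this list were also among the 10 genes nearest to Adipoq. For skeletal muscle markers r was 0.575. Of these, 0 of 10 were called in Tem1 WT/WT traction against sham, where 9.15% of all genes were called. Their sum was 13851, 3858 and 1405 CPM in Tem1 WT/WT sham, 2221, 353 and 366 CPM in Tem1 WT/WT traction, 2789, 1234 and 3665 CPM in Tem1 lacZ/lacZ sham and 2792, 1705 and 1622 CPM in Tem1 lacZ/lacZ traction libraries. The 2 libraries lowest in muscle markers, Tem1 WT/WT traction replicates 2 and 3, were thus also the 2 lowest of their group for the summed adipocyte genes, whereas the library highest in adipocyte genes was not the highest in muscle markers. The part of muscle or of the tissue taken with the scar in these results was not tested.

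Sebocyte markers, from the lipid-producing cells of the skin glands, summed to 2934, 1735 and 1941 CPM in Tem1 WT/WT sham and 770.0, 1447 and 684 CPM in Tem1 WT/WT traction libraries. In that comparison 4 of 10 fell, against 9.15% of all genes called in either direction. Tem1 lacZ/lacZ sham replicate 2, the lowest of its group for all 10 adipocyte genes, had the highest sebocyte sum of all libraries, 3398 CPM, and the r with Adipoq was 0.315. Neutrophil markers, of which 4 of 8 tested rose in the same comparison, summed to 6802 CPM in Tem1 WT/WT traction replicate 1 against 287 to 609 CPM in the other traction libraries of that genotype. In that library 8 of the 10 adipocyte genes were within, slightly below or above the range of the shams, but Lpl and Pparg were well below it. Endothelial markers (5 of 8 rose) were at 857, 946 and 1035 CPM in Tem1 WT/WT traction and 354, 449 and 519 CPM in Tem1 WT/WT sham libraries, while Fabp4, which endothelium also makes, had the log2 fold change of -0.48 given above. The r with Adipoq was -0.261 for endothelial, 0.0662 for macrophage, -0.225 for neutrophil, -0.310 for fibroblast, -0.199 for keratinocyte and -0.208 for red cell markers. In Tem1 WT/WT traction against sham, 0 of 9 macrophage, 1 of 7 fibroblast, 0 of 6 keratinocyte and 4 of 5 red cell genes rose. The share called over all genes was the 9.15% given above. The part of these cells in the result was not tested.

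**Figure D5:**
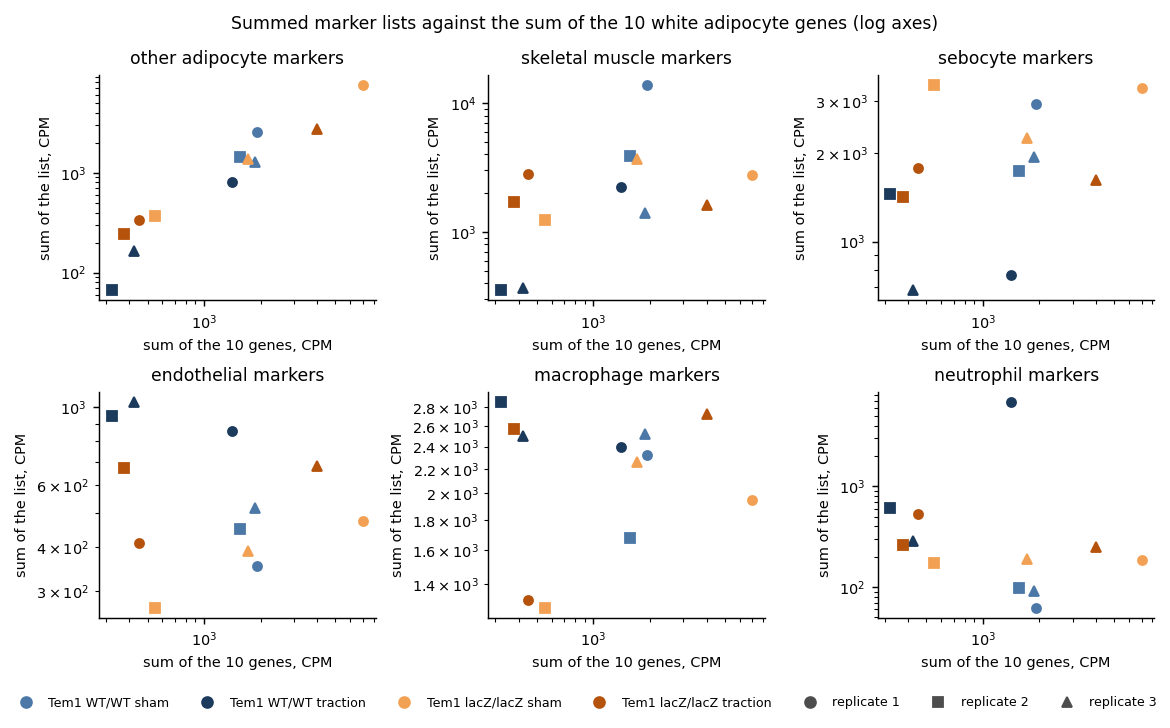
Summed CPM of 6 marker lists (vertical axes) against the summed CPM of the 10 white adipocyte genes (horizontal axes), on log axes, for 12 libraries coloured by group with replicate numbers as symbols. The other adipocyte markers rise along the whole range of 322 to 7019.7 CPM, and the other 5 lists do not form such a line.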

How the data were processed

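The authors extracted RNA from part of each scar and made stranded poly(A) libraries, read as paired ends of 150 bp. Per the labels and the authors' methods, reads were trimmed with fastp 0.20.0, aligned to GRCm38 with HISAT2 2.1.0 and counted on genes with featureCounts 2.0.0. The deposited values are raw counts per gene, 1 table for each library, with no normalization. The annotation, strand setting and treatment of reads with several alignments are not given in the sources used here. Each group had 3 mice.

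Counts were fitted in R 4.3.3 with edgeR 4.0.16: genes were kept by its filter on low counts by group, scaled by TMM, and tested by edgeR's quasi-likelihood F test (robust, two-sided) in a model of 4 groups over all 12 libraries, with Benjamini-Hochberg adjustment over 18853 genes. Log2 CPM used a prior count of 2. The fit was tested on simulated data. Gene positions and transcript lengths (longest basic coding transcript) are from GENCODE vM21, and promoters from RefSeq. The alternatives were looser and stricter filters, 2 other scalings, DESeq2 1.42.0, a non-robust fit, limma 3.58.1 (voom, weights for each library), a replicate block, only the compared libraries, and each library left out. The members and lists were chosen with earlier results of these data known. The text names all members, the 10 genes most correlated with Adipoq, relatives by level, and up to 4 genes of each list, called ones first, by size of the mean change with traction. The group markers are given by their sums.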

Additional observations from a re-analysis of the deposited data

How the results depend on the processing

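In all 6 comparisons, 0 of the 10 members were called under every alternative that could be fitted, although calls over all genes for the wild-type traction comparison reached 4047 (DESeq2's Wald test), against 1725 in the fit reported, but were 0 when only the 6 libraries compared were used. In that comparison the sign of the members held in 209 of 209 alternative values, with a median of -3.37 under limma-voom with sample weights. The sign turned in 13 of 209 values for traction in Tem1 lacZ/lacZ mice, 21 of 209 and 9 of 209 for genotype in sham and in traction scars, 47 of 199 for the interaction and 1 of 199 for the mean change with traction. Lep had no value where 10 counts were required in every library. Upper quartile scaling moved the median of all genes to -0.12 in the wild-type traction comparison and to 0.14 for genotype in traction scars. With the replicate number as a block, Adipoq in Tem1 lacZ/lacZ against WT/WT sham scars was at -0.49 and 0 members were called. The numbers were not taken as pairs, and the block changed no call of a member. Deviations of libraries with the same number correlated at -0.32 to 0.25, over 0.1 in 8 of 18 pairs. Libraries with unlike numbers were not compared in this way, so these values cannot decide whether the numbers mark pairs. Leaving out each library in turn, the log2 fold change of Adipoq ran from -4.44 to 0.60 for traction in Tem1 lacZ/lacZ mice, -0.52 to 1.76 for genotype in sham scars, -1.67 to 3.65 for genotype in traction scars and -2.88 to 2.45 for the interaction. That of Lpl ran from -0.047 to 1.95 for genotype in traction scars and -0.24 to 2.50 for the interaction. These turns of Adipoq and Lpl came without Tem1 lacZ/lacZ sham replicate 1 or traction replicate 3, and for the interaction of Adipoq also without Tem1 lacZ/lacZ sham replicate 2 or Tem1 WT/WT traction replicate 2. The lowest count of any member was that of Lep in Tem1 WT/WT traction replicate 2, 8 counts in a library of 46410588.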

Other observations

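A few genes related to fat cells stood out in Tem1 WT/WT traction replicate 1, the library with the highest summed neutrophil markers. G0s2, which encodes an inhibitor of adipose triglyceride lipase, was at 326 CPM there and at 3.49 to 35.4 CPM in the other 11 libraries. Retnlg, a relative of Retn found in neutrophils, was at 53.5 CPM there and at 0.542 to 9.65 CPM elsewhere. Dgat1, which encodes an enzyme of triglyceride synthesis and was singled out after its values were seen, was at 210.5 CPM there and at 22.1 to 63.6 CPM elsewhere. The members were not the highest of all libraries there.

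Receptors of the adipokines were present throughout. Adipor1, a receptor of adiponectin, was at 142 to 319 CPM, and Lepr, the leptin receptor, at 15.3 to 49.02 CPM over the 12 libraries. Lepr was at 23.3, 49.02 and 30.02 CPM in Tem1 WT/WT sham and 18.7, 17.02 and 15.3 CPM in Tem1 WT/WT traction libraries, without overlap, but its log2 fold change of -1.003 did not pass the test (adjusted p = 0.0831, edgeR's quasi-likelihood test). It was the 1 receptor gene of 6 wholly below the shams, as were 18% of all genes. Of the 6, 2 were wholly above, but the share of all genes wholly above was not taken.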
